A study of Monodelphis domestica and Mus musculus with 2 samples.

Results

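Prox1, Wfs1, Prkcd, Tcf7l2, Ttr and Th are 6 mouse genes best known as markers of brain regions other than the neocortex, and they were followed across a whole Stereo-seq section rather than in the visual cortex alone. They were chosen by symbol and are 6 of the 61317 features of the mouse count table, in which each symbol stands on 1 line. Stereo-seq captures polyadenylated RNA on a chip of barcoded spots, so each unique molecular identifier (UMI) keeps its place on the section and can be summed over segmented cells. The section came from 1 adult male wild-type C57BL/6J mouse of about P40, whose coronal slices from both hemispheres had been embedded together and flash-frozen. The authors drew 4 regions of primary visual cortex (V1) on it, named COL1 to COL4, and all cells without a region are called outside V1 here. With 1 section of 1 animal there are no replicates, so no test was made, and all intervals are exact 95% intervals that cover counting error only.

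Brain regions differ in the genes that their neurons keep on in the adult, and such genes are used to tell regions apart on a section. Prox1, a homeodomain transcription factor, stays on in granule cells of the dentate gyrus and also marks interneurons born in the caudal ganglionic eminence. Tcf7l2, a transcription factor of the Wnt pathway, is strong in thalamic and some midbrain neurons and is also found in cells of the oligodendrocyte and astrocyte lineages. Wfs1, a membrane protein of the endoplasmic reticulum, is widely used as a marker of CA1 pyramidal cells, and Prkcd, a protein kinase C, marks many thalamic relay neurons. Ttr, a carrier of thyroid hormone and retinol-binding protein, is made in bulk by the choroid plexus in the brain and by hepatocytes in the liver, and Th, the rate-limiting enzyme of catecholamine synthesis, marks dopamine and noradrenaline neurons.

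On GRCm39, GENCODE M39 places Prox1 at chr1:189850232-189904637, Wfs1 at chr5:37106176-37153872, Prkcd at chr14:30317307-30349238, Tcf7l2 at chr19:55730188-55922091 and Th at chr7:142443466-142484865, all as protein-coding genes. UMIs were summed over whole genes, so exonic and intronic reads are not told apart. Prox1 is overlapped on the opposite strand by Prox1os, a long noncoding RNA with 1149 UMIs in the table, and Wfs1 is overlapped on the opposite strand by Ppp2r2c with 77794 UMIs.

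After cells with fewer than 50 genes or 100 UMIs were removed, 120009 of 120239 cells and 147846003 UMIs remained. The V1 regions held 9128 cells with a median of 1305 UMIs per cell, against 110881 cells with a median of 1120 UMIs outside V1. Levels are given as UMIs of a gene per 10000 UMIs of all genes in the same cells, and because these are sums over a place, more cells with the gene and more of its RNA per cell cannot be told apart. For maps, the section was divided into tiles of 0.5 mm, of which 205 held at least 50 cells, with a median of 611 cells and 743058 UMIs. The 11 tiles (5%) with the highest level of a gene are called its top tiles. Cells linked to a neighbor within 30 µm formed 3 large pieces of tissue, with COL1, with COL2, and with COL3 and COL4. The labels give the tissue as cortex, and 8 genes of cortical glutamatergic neurons summed to 18.2 UMIs per 10000 in V1 and 14.9 outside, while 10 genes of dentate granule cells summed to 2.66 and 3.36.

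**Figure D1:**
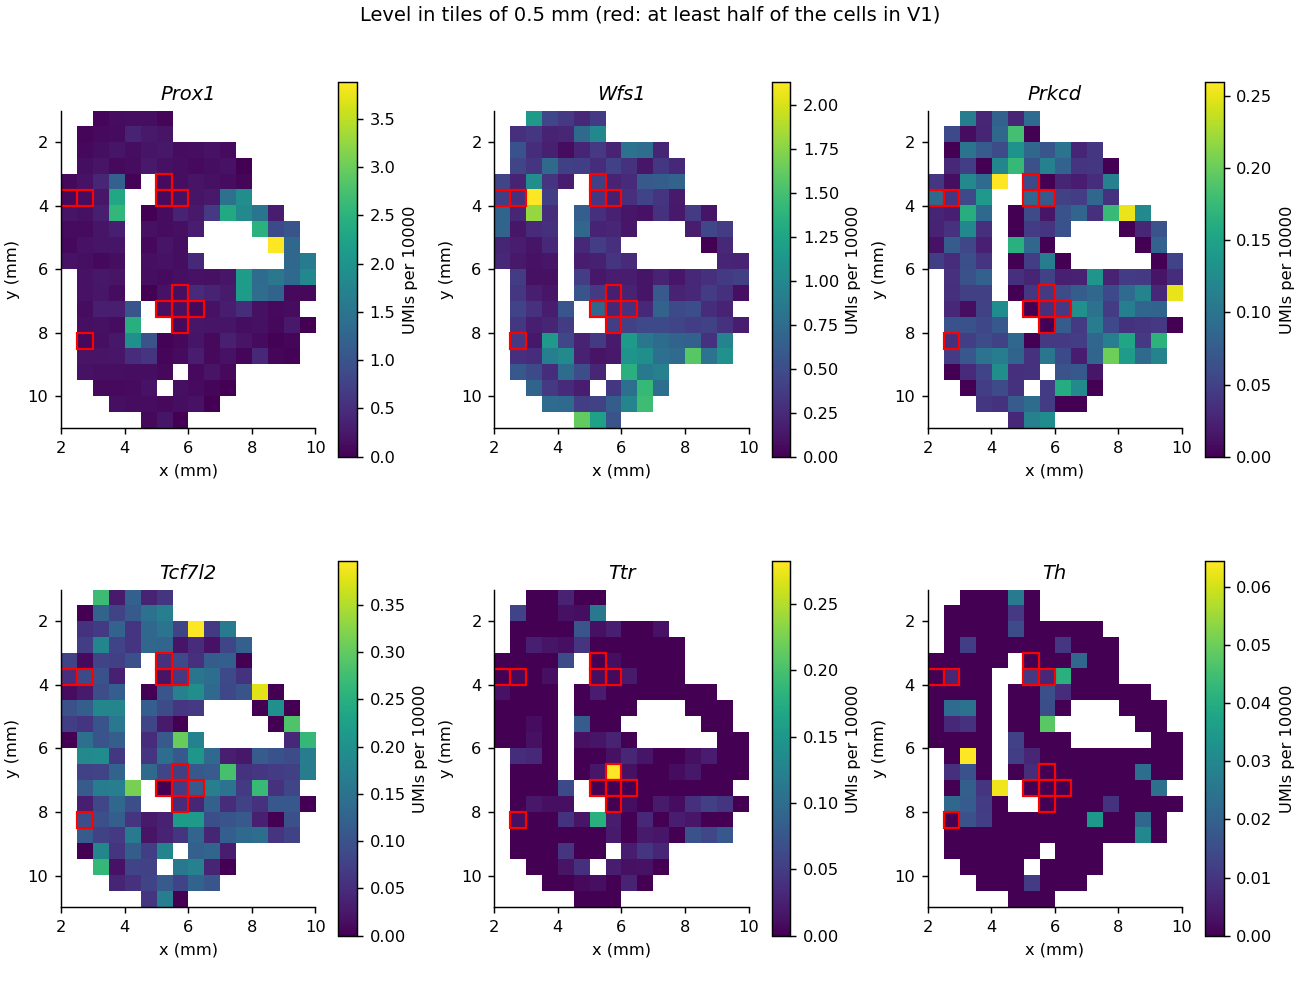
Level of each of the 6 genes, in UMIs per 10000, in the 205 tiles of 0.5 mm plotted at their x and y position on the section in mm, with tiles that lie mostly in V1 outlined in red and a separate color scale for each gene. The top tiles of Prox1 form 4 groups outside V1, of which 2 are joined by tiles at between 1.31 and 1.53. Wfs1 forms bands and patches, Prkcd and Tcf7l2 are scattered, and Ttr has a single bright tile, with 38 UMIs, in V1.

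Prox1 was concentrated in few places. Its 11 top tiles held 32.1% of its UMIs but 4.88% of all UMIs, and their level was 2.21 (2.11 to 2.32) against 0.240 (0.232 to 0.248) in the other tiles. The top tiles formed 4 groups of adjoining tiles, and none of them held a cell of V1. The group in x 7 to 9 mm and y 3.5 to 5.5 mm had 5 tiles and a level of 2.15 (1.97 to 2.34). The group in x 3.5 to 4 mm and y 3.5 to 4.5 mm was at 2.44 (2.20 to 2.70). The remaining groups, around x 4 to 4.5 mm and y 7.5 to 8.5 mm and around x 7.5 to 8 mm and y 6 to 7 mm, were at 2.18 (1.97 to 2.40) and 2.13 (1.90 to 2.38). The 4 groups thus differed from each other by little against their distance from the median tile, at 0.172.

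The tiles just inside and just outside the top set did not differ, with 1.82 in the lowest top tile and 1.81 in the highest other tile, so the border of the set is arbitrary. The number of groups depends on that border. Adjoining tiles below it, at between 1.31 and 1.53, ran from the group of 5 tiles to the group around x 7.5 to 8 mm and y 6 to 7 mm. The highest single tile, at 3.88, rested on only 14 UMIs (interval 2.12 to 6.51). The ranking held in cells that had not been used for it: with tiles ranked on every other cell, the 11 top tiles held 26.9% of the Prox1 UMIs of the remaining cells. Among 12102 genes with at least 1000 UMIs, 689 (5.69%) had a share of UMIs in their own top tiles at least 3-fold above the share of all UMIs there. Prox1, at 6.58-fold, was exceeded by 0.140% of them, and the median gene was at 1.84-fold.

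Genes of dentate granule cells were high in the Prox1 tiles. Of 10 such genes other than Prox1, all with at least 200 UMIs, 9 were at least 2-fold higher in the top tiles than in the other tiles, against 2.88% of 18483 genes, and their median fold was 6.73 against 1.00 over all genes. Dsp, which encodes the desmosomal protein desmoplakin, was 19.95-fold higher (17.6 to 22.6), with 523 of its UMIs in the top tiles and 511 in all others. C1ql2, a secreted C1q-like protein of mossy fiber synapses, was 10.7-fold higher (10.1 to 11.4). Tdo2, a tryptophan dioxygenase, was 10.8-fold higher (8.68 to 13.3), and Glis3, a zinc finger transcription factor, was 7.38-fold higher (6.88 to 7.90). The exception, Pdzd2, was 1.97-fold higher (1.81 to 2.16), just under the limit.

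The same comparison can be turned around, so that Prox1 has no part in choosing the tiles. In the 11 tiles richest in the other 10 granule cell genes, Prox1 was at 2.17 against 0.244 elsewhere, a fold of 8.89 (8.37 to 9.45) that 0.0325% of genes exceeded. With tiles of 0.25 mm the fold was 10.0 (9.43 to 10.6).

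Markers of other hippocampal fields and of the cortex gave a mixed picture in the Prox1 tiles. None of 8 genes of CA1 pyramidal cells was 2-fold higher and 5 of 8 were at least 2-fold lower, against 5.93% of all genes, among them Spink8 at 0.319-fold (0.263 to 0.384) and Mpped1 at 0.321-fold (0.289 to 0.356). Of 8 genes of cortical glutamatergic neurons, 5 were at least 2-fold lower, against the same 5.93%, and Fezf2, a transcription factor of deep-layer projection neurons, was at 0.407-fold (0.340 to 0.483), while Slc17a7 was at 0.836-fold (0.815 to 0.858) and Rasgrf2 was higher, at 1.27-fold (1.18 to 1.37). Genes of CA2 and CA3 had a median of 1.05-fold over the 6 tested, with Grik4, a kainate receptor subunit, at 1.92-fold (1.79 to 2.05) and Rgs14 at 1.43-fold (1.32 to 1.55), and the 7 genes of this list summed to between 2.71 and 3.22 UMIs per 10000 in the 4 groups of Prox1 tiles against 2.20 over all tiles. Of the 5 genes of caudal interneurons, only Adarb2 was at least 2-fold higher, at 3.36-fold (3.18 to 3.54), while Vip was at 0.471-fold (0.392 to 0.563). Lamp5, which like Vip marks such interneurons, was at 0.459-fold (0.414 to 0.507). It stands in the cortical glutamatergic list too and is among the 5 lower genes counted there.

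Over the 205 tiles, the genes whose square-root level followed Prox1 most closely were C1ql2 (Pearson's r of 0.879), Prox1os (0.846), Sema5a (0.833), Sipa1l2 (0.827) and Ahcyl2 (0.824). These values describe neighboring tiles of 1 section that share libraries and depth. Prox1os lies across the start of Prox1 on the opposite strand, and whether reads were counted by strand is not given in the sources used here.

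**Figure D2:**
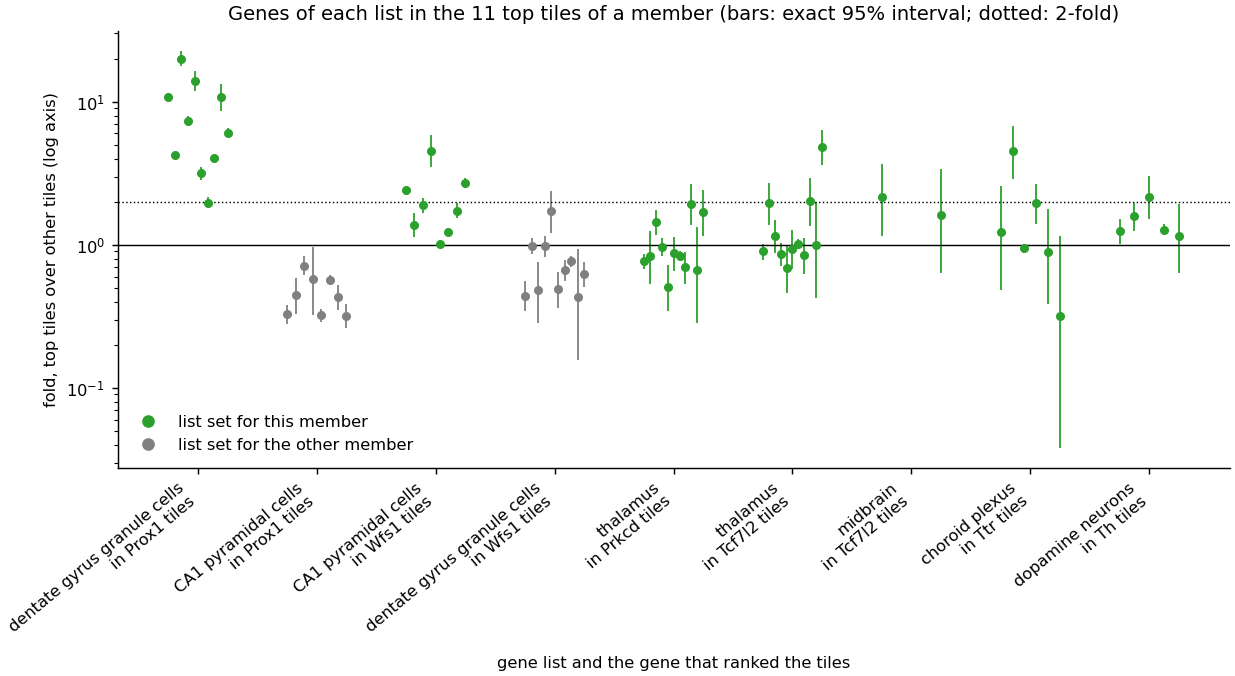
Each point is 1 gene of a list, and its height on a log axis is its level in the 11 top tiles of a member over its level in all other tiles, with an exact 95% interval. Granule cell genes in the Prox1 tiles lie between 1.97 and 19.95, CA1 genes in the Wfs1 tiles between 1.01 and 4.55, the thalamic and choroid plexus genes lie on both sides of 1, and the 2 midbrain and 5 dopamine genes lie between 1.15 and 2.16.

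Wfs1 was spread more widely than Prox1. Its 11 top tiles held 13.7% of its UMIs and 3.56% of all UMIs, at a level of 1.496 (1.39 to 1.60) against 0.348 (0.339 to 0.358) elsewhere, and 1.45% of genes were more concentrated in their own top tiles. The top tiles fell into 7 groups, of which the largest had 3 tiles, and none held a V1 cell. With tiles ranked anew on every other cell, the 11 top tiles held 12.4% of the Wfs1 UMIs of the remaining cells.

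The groups were not alike. The 2 tiles in x 3 to 3.5 mm and y 3.5 to 4.5 mm were at 1.95 (1.73 to 2.20) for Wfs1, and the 8 CA1 genes there summed to 12.6 UMIs per 10000, against 5.30 over all tiles. A single tile at x 3.5 to 4 mm and y 8 to 8.5 mm was at 1.15 (0.927 to 1.40) for Wfs1 and at 11.6 for the CA1 genes. The group of 3 tiles in x 6 to 7 mm and y 9 to 10.5 mm was at 1.39 (1.22 to 1.58) for Wfs1 but at 5.16 for the CA1 genes, close to the value over all tiles. In the remaining 4 groups the CA1 genes summed to between 3.22 and 5.94. High Wfs1 therefore coincided with a high CA1 sum in 2 of its 7 groups, and 7 of the 11 top tiles lay on the tissue piece with COL2.

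Over all top tiles together, 3 of the 8 CA1 genes were at least 2-fold higher, against 0.725% of all genes. Lefty1, a secreted antagonist of Nodal signaling, was 4.55-fold higher (3.52 to 5.83), Spink8 2.71-fold (2.49 to 2.94) and Ccn3, a matricellular protein, 2.41-fold (2.24 to 2.59). Neurod6, which excitatory neurons of the cortex express too, was at 1.23-fold (1.15 to 1.30). Ranking tiles by the CA1 genes instead put Wfs1 at 0.675 in the 11 richest tiles and 0.373 elsewhere, a fold of 1.81 (1.65 to 1.98), which became 2.48 (2.29 to 2.69) with tiles of 0.25 mm. The densest place for Wfs1, a circle of 0.1 mm radius at x 3.15 mm and y 4.07 mm, held 73 UMIs in 46 of 114 cells, a level of 4.54 (3.56 to 5.71).

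Prox1 and Wfs1 were each lower in the top tiles of the other than in the remaining tiles, and their Pearson's r over the 205 tiles was -0.213. In the Prox1 top tiles Wfs1 was at 0.722-fold (0.625 to 0.830) of its level elsewhere, and in the Wfs1 top tiles Prox1 was at 0.546-fold (0.442 to 0.667). Neither was absent there. Wfs1 was at 0.285, near its median tile of 0.333, and Prox1 at 0.187, near its median tile of 0.172. Of the 10 granule cell genes, 4 were at least 2-fold lower in the Wfs1 tiles, against 2.61% of all genes, and none was 2-fold higher, with Lct the highest at 1.71-fold (1.199 to 2.38). The genes closest to Wfs1 over tiles were Vstm2l (r of 0.614), Chst1 (0.581), Grasp (0.581), Penk (0.567) and Ankrd63 (0.556), lower values than those for Prox1.

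For Prkcd and Tcf7l2, tiles that ranked high on every other cell were not high in the remaining cells. Prkcd had 886 UMIs in the kept cells and a highest tile of 0.260 from 8 UMIs. Its top tiles, which formed 9 groups, held 9.41% of its UMIs and 3.11% of all UMIs when ranked and measured in the same cells. With tiles ranked anew on every other cell, the share of its UMIs in the remaining cells was 2.88%, which is 0.976-fold the share of all UMIs. Tcf7l2 had 1421 UMIs, and the corresponding shares were 6.15% and 2.31%, the latter 0.809-fold. The height of the tiles ranked on every other cell was therefore not found again in the other cells of those tiles. The top tiles ranked on all cells were not measured in this way. With so few UMIs per tile, a ranking on every other cell could hardly find them again.

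Genes known from thalamus were mixed in these tiles. Of 12 thalamic genes, 11 had enough UMIs, and none was 2-fold higher in the Prkcd top tiles, against 1.65% of all genes, with Ramp3 at 0.507-fold (0.346 to 0.719) and Slc17a6, the vesicular glutamate transporter of many subcortical neurons, at 0.697-fold (0.534 to 0.895). Synpo2 at 1.94-fold (1.38 to 2.66), Zic1 at 1.70-fold (1.15 to 2.42) and Plekhg1 at 1.44-fold (1.18 to 1.75) were on the high side, and the median of the 11 was 0.839-fold. In the Tcf7l2 top tiles 2 of the 11 were at least 2-fold higher, against 2.55% of all genes. These were the zinc finger transcription factor Zic1 at 4.83-fold (3.62 to 6.34) and Synpo2 at 2.02-fold (1.34 to 2.93), and the median of the 11 was 1.00-fold. Gbx2, a transcription factor that defines much of the developing thalamus, had 1 UMI on the whole section.

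Ranked by the thalamic genes, the richest 11 tiles had Prkcd at 0.905-fold (0.557 to 1.39) and Tcf7l2 at 1.73-fold (1.32 to 2.23), which 3.61% of genes exceeded. Of the 8 midbrain genes, only Tal1 and Gata2 had 200 UMIs, and Gata2 was at 2.15-fold (1.16 to 3.66) and Tal1 at 1.61-fold (0.640 to 3.38) in the Tcf7l2 tiles. In the 11 tiles ranked by the midbrain genes Tcf7l2 was at 1.10-fold (0.752 to 1.55), and at 0.882-fold with tiles of 0.25 mm. Sox14 had 0 UMIs, Otx2 6 UMIs, Gata3 7 UMIs and Pax7 21 UMIs on the section.

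Cells of the oligodendrocyte lineage gave Tcf7l2 a second comparison, added after the genes of its densest place had been seen. That circle, at x 3.26 mm and y 2.75 mm, held 10 Tcf7l2 UMIs, as many as a second place more than 0.2 mm away. Mobp, a myelin protein, was at 56.5 in the circle against 5.27 elsewhere. In the 11 tiles of 0.5 mm richest in 10 genes of oligodendrocytes, Tcf7l2 was at 0.140 against 0.0929, a fold of 1.504 (1.25 to 1.80) that 5.77% of genes exceeded. With 0.25 mm tiles the fold was 1.79 (1.46 to 2.17). In the Tcf7l2 top tiles of 0.5 mm these genes were mostly lower, with a median of 0.637-fold and Mobp at 0.486-fold (0.453 to 0.521). In those of 0.25 mm 9 of 10 were at least 2-fold higher, so the direction turned with the size of the tiles. The share of all genes at least 2-fold higher, 2.55%, is given for tiles of 0.5 mm only, so the count at 0.25 mm has no share beside it.

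Th was near the limit of detection, with 58 UMIs in 53 of 120009 cells. No Th UMI was found in 165 of the 205 tiles, and the highest count in a tile was 4. Of the genes of dopamine neurons, the dopamine transporter Slc6a3 had 23 UMIs on the section, Pitx3 5 and En1 1. Genes of the same list that other cells express too were more frequent, with 9528 UMIs of Nr4a2, 1835 of Aldh1a1 and 1139 of Ddc outside V1. The noradrenaline markers Dbh and Slc6a2 had 23 and 37 on the section. Of the 12 genes of dopamine neurons 5 had at least 200 UMIs, and 1 of them, Dlk1, was at least 2-fold higher in the Th tiles (2.16-fold, 1.51 to 3.02), against 0.281% of all genes. In the tiles ranked by the dopamine genes, Th was at 1.51-fold with an interval from 0.302 to 4.65, from 3 UMIs.

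Ttr had 171 UMIs in 129 cells and a single dense place. A circle of 0.1 mm radius at x 5.88 mm and y 6.65 mm, in V1 region COL1, held 26 UMIs in 15 of 130 cells. This was 15.2% of its UMIs in 0.138% of all UMIs, a level of 1.28 (0.834 to 1.87) against 0.00982 elsewhere. The densest circle more than 0.2 mm away held 5 UMIs, whereas for Prkcd and Tcf7l2 the densest circles held 9 and 10 UMIs and a second place held 8 and 10. For Ttr, 129 of the 205 tiles held no UMI. With tiles ranked anew on every other cell, the top tiles held a share of Ttr UMIs of the remaining cells 9.19-fold the share of all UMIs.

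The genes that shared this place were products of hepatocytes, a list added after its leading genes had been seen. Among genes with at least 10 UMIs in the circle, the highest fold over the rest of the section belonged to Mup3, a major urinary protein, with 14 of its 59 UMIs there. Fabp1, the liver fatty acid-binding protein, had 19 of 105, the apolipoprotein Apoa2 31 of 327 and serum albumin, Alb, 20 of 281. The 14 hepatocyte genes together were at 6.14 (5.11 to 7.31) in the circle and 0.0956 elsewhere. Since the list followed from genes seen in this same circle, a high sum was built in. Genes of the choroid plexus were not raised, at 2.26 (1.65 to 3.01) against 2.08, and 44 of their 46 UMIs in the circle came from Enpp2, which oligodendrocytes express too. Genes of ependymal cells had 0 UMIs there, with an exact 95% upper limit of 0.181, and vascular and meningeal genes were at 1.52 (1.03 to 2.16) against 1.64.

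Both signals fell steeply within 0.2 mm, but the hepatocyte genes did not reach their level elsewhere by that distance. Some fall was built in, since Ttr itself had set the center and the hepatocyte list was added after genes of that place had been seen. Ttr was at 2.28 (1.18 to 3.99) within 0.05 mm of the center, 0.926 (0.506 to 1.55) in the next ring of the same width and 0.247 (0.0804 to 0.578) in the third. The hepatocyte genes were at 15.2 (12.1 to 19.0), 2.98 (2.17 to 3.98) and 1.53 (1.04 to 2.18) in the same rings. Farther out they were at 0.550 (0.326 to 0.869) from 0.2 to 0.25 mm and 0.251 (0.146 to 0.402) from 0.4 to 0.45 mm. From 0.45 to 0.5 mm they were at 0.131 (0.0628 to 0.241), an interval that includes the 0.0956 found outside the circle. In the circle, 12 of the 15 cells with Ttr (80.0%, 51.9 to 95.7) also held a hepatocyte UMI, against 33 of all 130 cells (25.4%, 18.2 to 33.8). The 33 include the 12, and the cells are neighbors on 1 section rather than replicates. Because both signals peaked at a center that Ttr had set, some of this overlap was built in as well. Away from it, 1 of 110 cells with Ttr did (0.909%, 0.0230 to 4.96), a share like that among all cells there, 0.880%. The median cell of the circle had 1557 UMIs and its cells with Ttr 1783.

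By the authors' labels, 5 of the 15 cells were L6CT neurons, 4 had no label, and L2/3, L6IT, oligodendrocyte (OD), oligodendrocyte precursor (OPC), Pvalb and Sst each had 1. The signal was thus not tied to a single label.

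**Figure D3:**
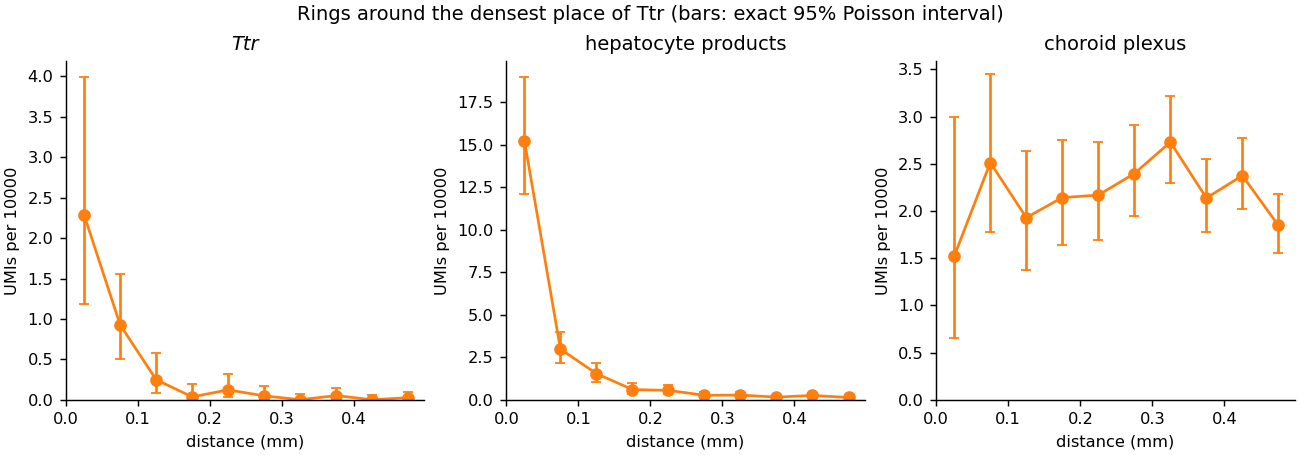
Level in UMIs per 10000 of Ttr, of 14 hepatocyte genes and of 12 choroid plexus genes, in rings of 0.05 mm around the densest place of Ttr, against distance in mm, with exact 95% Poisson intervals. Ttr and the hepatocyte genes fall from 2.28 and 15.2 in the first ring to at most 0.122 and 0.597 past 0.15 mm, while the choroid plexus genes stay between 1.52 and 2.73. The center was set by Ttr itself, and the hepatocyte list was added after genes of that place had been seen.

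Genes of the choroid plexus were also set against the tiles of Ttr. Of the 12 genes 6 had at least 200 UMIs, and 1, Ecrg4, was at least 2-fold higher in the Ttr top tiles (4.50-fold, 2.90 to 6.75), against 0.871% of all genes. With the 0.2 mm around the dense place left out, 2 choroid plexus genes were at least 2-fold higher. For that setting no share over all genes is given, so this count cannot be weighed. The top tiles of Ttr, then ranked and measured in the same cells, held 22.2% of its UMIs and 2.443% of all UMIs. In the 11 tiles richest in the choroid plexus list, Ttr was at 0.0184 against 0.0110, a fold of 1.66 (0.814 to 3.06). In the 11 tiles richest in the hepatocyte list it was at 0.0888 against 0.00857, a fold of 10.4 (7.19 to 14.7), a set of tiles that includes the dense place. That list was added after genes of the dense place had been seen, so a high fold was built in. The folds of the 2 lists are therefore not comparable. Counts of the choroid plexus genes on the section ran from 11 UMIs for the channel subunit Kcne2 and 40 for the chloride channel protein Clic6 to 28500 for Enpp2. Between them lay Ecrg4 with 236 and Kl with 811. The 12 genes summed to 1.99 UMIs per 10000 in V1 and 2.09 outside, of which Enpp2 made up 1.92 and 1.93. Ecrg4 was higher outside, at 0.0173 against 0.00160, and Slc4a5 was not, at 0.0101 against 0.0112.

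The levels inside and outside V1 were then compared. Prox1 had 144 UMIs in V1 and 4831 outside, at levels of 0.115 (0.0970 to 0.135) and 0.357 (0.347 to 0.367). Of the 4 members with at least 200 UMIs it was the only one at least 2-fold higher outside, at 3.10-fold (2.63 to 3.69), against 2.44% of the 18496 genes with at least 200 UMIs, and 0.524% of these had a larger fold. When the 41 tiles (20%) richest in the 10 granule cell genes were left out, which removed 57.4% of the Prox1 UMIs outside V1, the fold was 1.51 (1.28 to 1.80). In the V1 regions COL1 to COL4 the level was 0.124, 0.0648, 0.101 and 0.150, and none of these reached the level outside.

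Wfs1 was at 0.274 (0.246 to 0.304) in V1 and 0.401 (0.390 to 0.411) outside, 1.46-fold (1.31 to 1.64), with 0.279 in COL1, 0.308 in COL3 and 0.2505 in COL4, and 54 UMIs in COL2 (interval 0.188 to 0.326). Tcf7l2 was at 0.0599 (0.0471 to 0.0751) in V1 and 0.0995 (0.0942 to 0.105) outside, 1.66-fold (1.32 to 2.12), with 0.0673, 0.0694, 0.0488 and 0.0501 in the 4 regions. A fold of at least 1.5 was found for 7.92% of genes. For both genes all 4 regions lay below the level outside. Prkcd was at 0.0543 and 0.0604, and the interval of its fold of 1.11 (0.869 to 1.45) includes 1, so a difference of this size was not detectable at this depth.

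Ttr was lower outside V1, and Th had no clear direction. Ttr had 38 UMIs in V1 and 133 outside, at 0.0303 (0.0215 to 0.0417) and 0.00983 (0.00823 to 0.0116), a fold of 0.324 (0.224 to 0.478). A level at least 2-fold lower outside was found for 0.335% of the genes with at least 200 UMIs, a minimum that Ttr and Th did not reach. Of the 38 UMIs 33 were in COL1, and COL2, COL3 and COL4 had 2, 1 and 2. Without COL1 the fold was 1.497 (0.626 to 4.69), and without the cells within 0.2 mm of the dense place it was 0.860 (0.485 to 1.66). The difference thus rested on that place. Th had 7 UMIs in V1 and 51 outside, a fold of 0.674 (0.305 to 1.76), with 0, 4, 1 and 2 UMIs in COL1 to COL4. Without COL1 its fold was 0.410 and without COL2 it was 1.30 (0.421 to 6.52). The 0 UMIs in COL1 allow a level of up to 0.00752, the exact 95% upper limit.

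**Figure D4:**
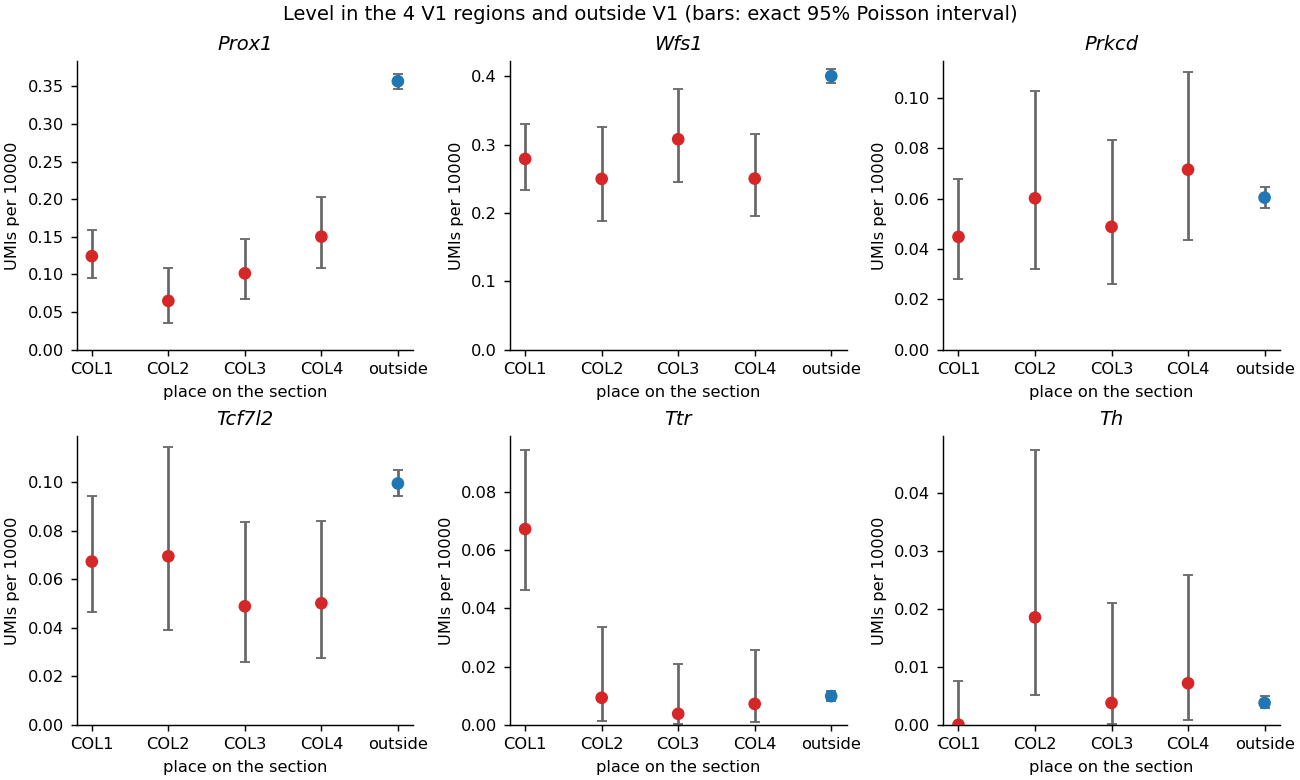
Level in UMIs per 10000 of each gene in the 4 V1 regions (red) and outside V1 (blue), with exact 95% Poisson intervals and an axis from 0 for each gene. Prox1, Wfs1 and Tcf7l2 are lower in all 4 regions than outside, and Ttr is high in COL1 alone, at 0.0673.

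The share of cells with a UMI behaved like the level. A Prox1 UMI was found in 1.27% of V1 cells (1.05 to 1.52) and 3.24% of cells outside (3.14 to 3.35), and in 0.289% and 1.13% after every cell had been thinned to 300 UMIs. For Wfs1 the shares were 3.20% and 3.80%, or 0.745% and 1.17% after thinning. Cells of V1 that carry the label of microglia, which should lack Prox1, had a Prox1 UMI in 4 of 197 cases at a median depth of 1261 UMIs, a share no lower than that of V1 as a whole. The highest count in a cell was 7 for Prox1 and 6 for Wfs1, both outside V1, against 4 for each in V1.

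Inside V1, Wfs1 varied with depth. In the bin nearest to L2/3, of 5 equal bins of relative depth, it was at 0.497 (0.407 to 0.602), and in the 4 deeper bins at 0.2498, 0.266, 0.205 and 0.196. By label it was at 0.423 (0.334 to 0.528) in L2/3 neurons, 1.70-fold (1.31 to 2.20) the level in all other V1 cells, and at 0.170 (0.118 to 0.238) in L6CT neurons, 0.579-fold (0.394 to 0.827). The highest subclass was L5IT, at 0.469 (0.225 to 0.863) from 10 UMIs, and microglia were at 0.431 (0.215 to 0.771) from 11 UMIs. The mean relative depth of its UMIs was 0.370, against 0.521 for all UMIs, and lay between 0.317 and 0.429 in the 4 regions. Prox1 was flat, between 0.107 and 0.127 in all 5 bins.

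Tcf7l2 differed by class of cell. It was at 0.135 (0.0932 to 0.190) in non-neuronal cells and 0.0425 (0.0299 to 0.0585) in glutamatergic cells, and non-neuronal cells were 3.25-fold (2.00 to 5.26) above all other V1 cells. Cells labeled as astrocytes had 11 UMIs and a level of 0.198 (0.0991 to 0.355). Prox1 was at 0.169 (0.0872 to 0.295) in GABAergic cells, from 12 UMIs, at 0.148 (0.103 to 0.205) in non-neuronal cells and at 0.0987 (0.0790 to 0.122) in glutamatergic cells. By Slc17a7, the vesicular glutamate transporter of cortical neurons, the labels did not separate glutamatergic from non-neuronal cells. It was at 10.49 (10.3 to 10.7) in glutamatergic, 10.80 (10.4 to 11.2) in non-neuronal and 8.81 (8.13 to 9.53) in GABAergic cells. The labels were also given from the expression of the same cells, so levels by label, those of Wfs1 included, are a description. Ttr had its highest bin at the bottom, 0.0854 (0.0547 to 0.127), but the mean depth of its UMIs moved from 0.747 to 0.527 without the 0.2 mm around the dense place.

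**Figure D5:**
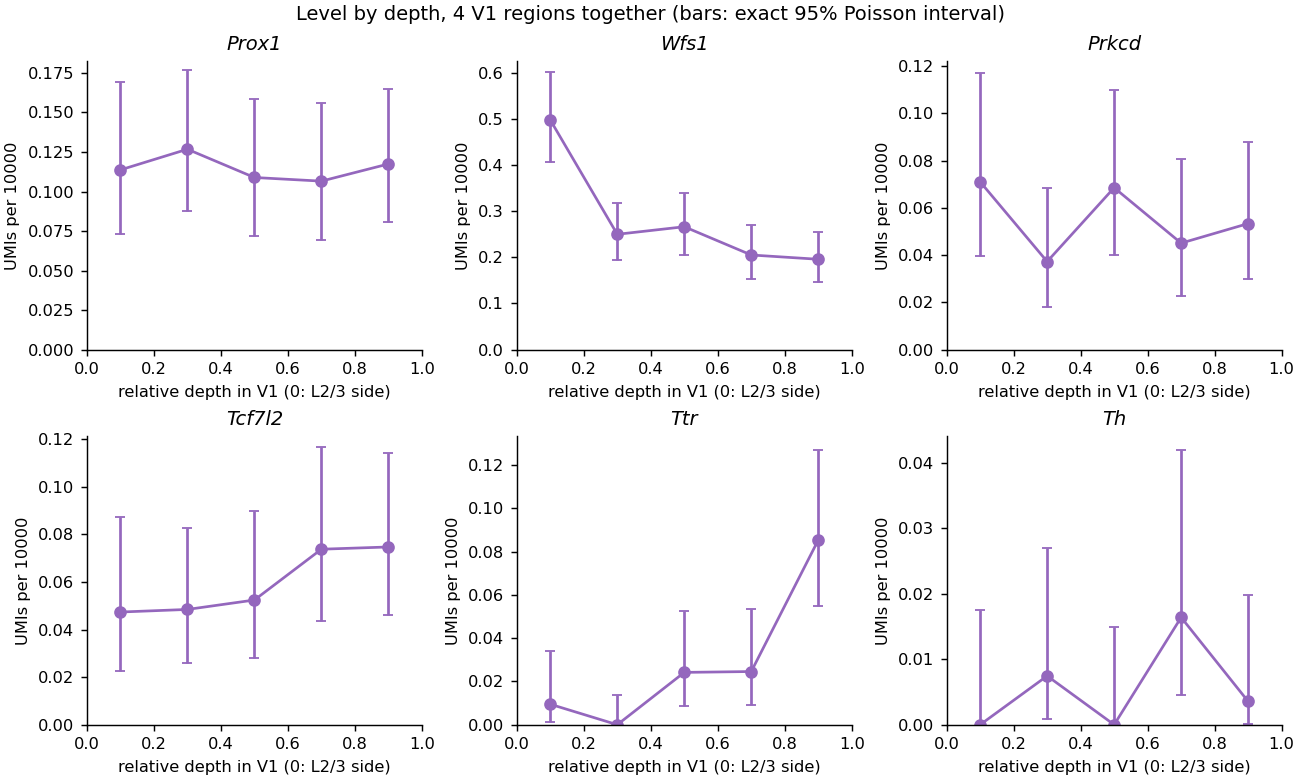
Level in UMIs per 10000 of each gene against relative depth in V1 (0 at the L2/3 side, 1 at the L6CT side), in 5 equal bins over the 4 regions together, with exact 95% Poisson intervals. Wfs1 is highest in the top bin at 0.497, Prox1 is flat, and Ttr is highest in the bottom bin at 0.0854.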

How the data were processed

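The deposited counts are whole UMI counts per gene and segmented cell of 1 mouse section, made by the authors with the vendor's Stereo-seq workflow and alignment to GRCm39, without normalization. Positions (2 units per µm), V1 regions and class and subclass labels are the authors' deposited columns, and labels are used only inside V1. The authors' notes also name Cell Ranger. No column of per-sample values was left unmatched, and the opossum sample was not used here. Counting could have split reads between overlapping genes, and RNA that spreads before capture can be counted in a neighboring cell.

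The members and gene lists were chosen with earlier results of these data known. The lists of hepatocyte and oligodendrocyte genes, the split into tissue pieces (cells linked within 30 µm), the 0.2 mm exclusion, the ranking of tiles by a list and the exclusion of list-rich tiles were choices made once the data were known. Genes named are the 6 members, the genes of the lists and the 5 genes most correlated with each member over tiles. Genes at the densest places were named after their values were seen. A gene that this rule names is not reported here.

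Levels have exact Poisson intervals, ratios and shares exact Clopper-Pearson intervals, at 95%, and cover counting error only. Lists were compared for genes with at least 200 UMIs and correlations for genes with at least 1000. A list ranks tiles by the mean level of its genes with at least 20 UMIs, each relative to the section. Depth came from the smallest rectangle around each V1 region. The fold computation was tested on simulated data. The settings varied were the minimum per cell (none, or 200 genes with 300 UMIs), means over cells, a 0.5 mm margin around V1, cells passing the authors' filter, each V1 region left out, thinning to 300 UMIs, tiles of 0.25 and 1 mm, 3-fold, 1000 UMIs, and ranking on other cells. The tools were scipy 1.17.1, shapely 2.1.2, pandas 2.3.3, matplotlib 3.10.9 and numpy 2.4.6 under Python 3.11.15, and GENCODE M39 gave coordinates. Ccn3 and Ecrg4 were matched by identifier because the table has older symbols.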

Additional observations from a re-analysis of the deposited data

Results flagged for a closer look

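Among the 4 V1 regions, the level of Ttr in COL1, 0.0673 UMIs per 10000, stood apart from the other 3, which had 0.00926, 0.00376 and 0.00716. It was noted because its gap to the nearest other region took up more of the whole range than chance gives in most groups of 4 values. Chance alone gives such a gap in about 1 in 20 groups, and 6 genes were examined, of which 1 showed it. Of the 33 Ttr UMIs in COL1, 26 lay in the circle of 0.1 mm described above.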

How the results depend on the processing

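No paired analysis was possible because there is 1 sample of each species. The alternatives left 70 of 85 folds between outside and inside V1, 21 of 36 shares in top tiles, 26 of 45 counts of list genes, 28 of 30 depths and 6 of 6 levels by label within their limits.
Outside over inside V1, Ttr was at 1.08 (0.281 to 9.20) on the piece with COL2 and 1.15 (0.363 to 5.84) on the piece with COL3 and COL4. Both intervals include 1, so these folds give no direction. Ttr was at 0.215 on the piece with COL1 and 0.860 without the 0.2 mm around its dense place. Leaving out 1 V1 region at a time gave 0.262 to 1.497 for Ttr, the highest value without COL1, and 0.410 to 1.30 for Th, the lowest without COL1 and the highest without COL2. Thinning put Prox1 at 4.10 and Wfs1 at 1.65. Prox1 was at 3.69 on the piece with COL1 and 4.28 on the piece with COL2, and Wfs1 at 1.27, 2.01 and 1.26 on the pieces with COL1, COL2, and COL3 and COL4. Th was at 0.180 on the piece with COL2 and has no fold on the piece with COL1, where V1 held 0 UMIs. Without the tiles richest in their lists, Prox1 was at 1.51 and Wfs1 at 1.24.
The share of UMIs in top tiles with 0.25 mm tiles was 36.3% for Prox1, 18.0% for Wfs1, 15.1% for Prkcd, 12.4% for Tcf7l2, 63.6% for Ttr and 81.0% for Th, and with 1 mm tiles 14.1% for Prox1, 7.13% for Prkcd and 4.93% for Tcf7l2. Ranked on other cells it was 26.9% for Prox1, 12.4% for Wfs1, 2.88% for Prkcd, 2.31% for Tcf7l2 and 3.33% for Th. Without the dense place it was 22.2% for Ttr.
Counts of list genes at least 2-fold higher changed as follows, and no share over all genes is given for these settings. With 0.25 mm tiles, 1 thalamic gene in the Prkcd tiles (0 before) and, in the Tcf7l2 tiles, 1 thalamic (2 before), 0 midbrain (1 before) and 9 oligodendrocyte genes (0 before) passed, and 0 dopamine genes in the Th tiles (1 before). With 1 mm tiles, 1 thalamic and 0 midbrain genes passed in the Tcf7l2 tiles and 0 choroid plexus genes (1 before) in the Ttr tiles. At 3-fold, 1 CA1 gene (3 before), 1 thalamic gene in the Tcf7l2 tiles, 0 midbrain and 0 dopamine genes passed. With at least 1000 UMIs per gene, 0 thalamic genes in the Tcf7l2 tiles and 0 midbrain, choroid plexus, dopamine and hepatocyte genes (3 before) passed. Without the dense place, 2 choroid plexus and 0 hepatocyte genes passed in the Ttr tiles.
Leaving out 1 region at a time put the mean depth of Ttr UMIs between 0.494 and 0.771, and it was 0.527 without the dense place. The causes of these changes were not tested. At 58 UMIs for Th and 171 for Ttr, depth limits what can be said of either.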
